A study of Homo sapiens with 6 samples.

Results

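The genes described here are CXCL8, IL6, BIRC3, SOD2 and JAK2, 5 genes of NF-kB and cytokine signalling among the 5117 genes with a row in the deposited count table. They were chosen by their gene symbols with their counts in this comparison already known, so that the lower level of each in C1s-CM is the basis of the choice and is given as a description, with no test. RNA was sequenced from wild-type HMC3 cells, an established human microglial cell line, grown in medium with serum. In 3 libraries the cells had been given C1s-CM, which the labels describe as CM containing C1s, and in 3 libraries control CM without C1s, titled FLAG; the labels do not spell out CM or say which cells conditioned it. C1s is a serine protease of the complement cascade. By its title, the series asks how C1s acts on microglia, and on their metabolism, in mesenchymal glioblastoma. Whether the libraries of a group stem from separate cultures is not stated in the labels.

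NF-kB is a family of dimeric transcription factors held in the cytoplasm by inhibitor proteins until a kinase complex marks those inhibitors for destruction, after which the dimers enter the nucleus and bind kB sites. In microglia and macrophages the chemokine gene CXCL8, the cytokine gene IL6, the apoptosis inhibitor gene BIRC3 and the mitochondrial superoxide dismutase gene SOD2 are among its well known targets. JAK2 encodes a tyrosine kinase of the JAK family bound to cytokine receptors, and IL-6 signals through kinases of this family by way of the receptor subunit IL6ST.

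The deposited table holds only genes that passed the authors' own test, with a largest adjusted p of 0.05, and its counts sum to 12730766 to 14961744 per library, which is part of each library's reads. Levels are given as CPM, the share of the table's counts on the usual scale, after TMM scaling, which equalises the libraries on the bulk of their genes. TMM takes most genes as unchanged, which a table of only called genes does not meet. Its factors were 0.953 to 0.960 in C1s-CM and 1.036 to 1.053 in control CM, so results with total counts as the only scaling are also given. A gene with no row was not analysed here. Of 15 microglia and macrophage markers only 1 had a row, so the labelled cell type could not be checked against its defining markers. Of 10 pericyte and fibroblast markers 4 had a row, 3 of them called higher (FN1 0.36, TAGLN 0.31 and PDGFRB 0.12, the last at -0.0090 with total counts as the only scaling). The fourth, COL1A1, was at 0.03, not called, but was called lower with total counts (-0.10) and with the offsets for GC content and length described below (-0.16). In the control libraries FN1 had 178841 to 202838 counts, COL1A1 49853 to 54676, TAGLN 12085 to 13117 and PDGFRB 2012 to 2243. These levels could not be set against those of the markers without a row. Of 9 astrocyte, neuron and endothelial markers 0 had a row. All 13 mitochondrially encoded genes were called higher in C1s-CM, with a median log2 difference of 0.27 (10 of 13 with total counts). The part of cell identity or RNA quality in the results below was not tested.

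The promoters of CXCL8, IL6 and BIRC3 are printed because each holds a match to a kB pattern. Whether these matches bear on the levels was not tested. The RefSeq sequences of build GRCh38.p14 run from 250 bases before to 50 bases after the start site, on the plus strand, at chr4:73740319-73740618 for CXCL8, chr7:22726950-22727249 for IL6 and chr11:102317234-102317533 for BIRC3. Capitals mark matches to the NF-kB consensus or to a relaxed kB pattern, GGNNNTTCC, on either strand.
CXCL8: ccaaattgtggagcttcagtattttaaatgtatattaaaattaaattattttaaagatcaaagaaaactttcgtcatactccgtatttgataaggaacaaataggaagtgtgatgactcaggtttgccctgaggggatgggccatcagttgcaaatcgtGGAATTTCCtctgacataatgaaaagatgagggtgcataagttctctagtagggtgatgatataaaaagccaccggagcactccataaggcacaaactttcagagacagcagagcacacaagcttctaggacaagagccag
IL6: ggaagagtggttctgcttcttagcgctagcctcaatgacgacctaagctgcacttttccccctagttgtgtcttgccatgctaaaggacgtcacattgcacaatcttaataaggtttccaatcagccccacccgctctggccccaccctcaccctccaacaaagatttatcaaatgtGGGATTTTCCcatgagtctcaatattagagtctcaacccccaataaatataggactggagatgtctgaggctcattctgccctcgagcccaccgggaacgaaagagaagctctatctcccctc
BIRC3: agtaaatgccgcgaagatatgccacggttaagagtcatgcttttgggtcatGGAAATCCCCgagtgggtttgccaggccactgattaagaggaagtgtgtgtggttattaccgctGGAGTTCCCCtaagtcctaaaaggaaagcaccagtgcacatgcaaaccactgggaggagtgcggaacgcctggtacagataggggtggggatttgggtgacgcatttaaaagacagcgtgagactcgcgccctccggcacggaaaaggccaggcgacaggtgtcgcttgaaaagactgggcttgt

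IL6 had 1 match to the consensus, from -73 to -64 before its start. BIRC3 had 2 on the minus strand, from -199 to -190 and from -135 to -126. CXCL8 had no consensus match but 1 match to the relaxed pattern, from -91 to -83, where the pattern fits the letters of either strand, and it also matched inside the consensus of IL6 (-72 to -64) and inside the first of BIRC3 (-199 to -191). The relaxed pattern was added after the sequences had been read. Of 35116 RefSeq promoters of this length 11.3% held the consensus and 20.1% the relaxed pattern, so neither is rare. Among the 6173 promoters of the table's own genes these shares were 13.2% and 23.1%. The promoter of CXCL8 also held the AP-1 motif TGANTCA from -137 to -131 (7.71% of all promoters, 4.65% of those of the table's genes) and the TATA box TATAAA from -31 to -26 (11.5% and 5.51%). IL6 held the C/EBP motif TTGCNNAA from -155 to -148 (10.5% and 6.69%). SOD2 and JAK2 have 4 RefSeq promoters each. In the one nearest the representative transcript, neither kB pattern was present, and the GC box GGGCGG, present in 45.0% of all promoters and 69.6% of those of the table's genes, occurred 6 times for SOD2 and 1 time for JAK2. Among the further promoters the relaxed pattern occurred 1 time, in one of JAK2 from -153 to -145. The STAT motif TTCNNNGAA (7.66% and 5.85%) was in none of them. Motifs were searched on both strands, and a match shows only that these letters occur in the window.

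**Figure D1:**
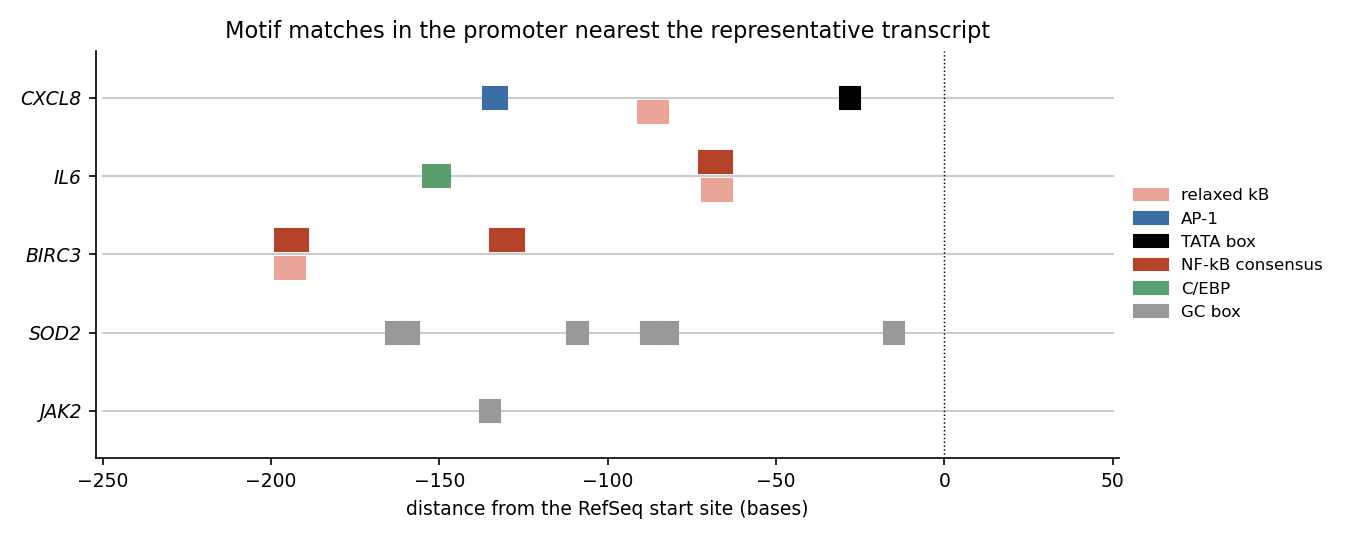
Motif matches by distance in bases from the RefSeq start site (dotted line) in the promoter nearest the representative transcript of each gene; a box spans the matched bases. CXCL8, IL6 and BIRC3 carry kB matches between -199 and -64, and SOD2 and JAK2 carry GC boxes only.

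CXCL8 encodes interleukin 8, a chemokine that draws neutrophils. Its counts were 136, 150 and 134 in the C1s-CM libraries and 242, 262 and 276 in the control libraries. The level was 10.1 ± 0.360 CPM in C1s-CM and 18.6 ± 0.285 CPM in control CM (SD, n = 3 each). On the log2 scale the SDs, 0.05 and 0.02, were below the 0.12 and 0.09 that counting error alone gives, so they understate the error. The highest C1s-CM library, at 10.5 CPM, lay below the lowest control library, at 18.3 CPM, and the mean with C1s was 54.3% of control. The log2 difference was -0.88 ± 0.10 (SE).

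IL6 encodes a cytokine of inflammation and the acute phase response. It had 48, 54 and 38 counts in C1s-CM and 85, 75 and 80 in control CM, or 3.36 ± 0.514 against 5.74 ± 0.612 CPM (SD, n = 3 each). The groups did not overlap, but the gap was narrower than for CXCL8, from 3.79 CPM in the highest C1s-CM library to 5.31 CPM in the lowest control library. The mean was 58.6% of control and the log2 difference -0.76 ± 0.17 (SE).

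BIRC3 encodes cIAP2, a ubiquitin ligase that restrains cell death and acts within the signalling of the tumour necrosis factor receptor. Its counts were the smallest of the 5 genes, 29, 26 and 25 in C1s-CM and 57, 60 and 61 in control CM. The level was 1.93 ± 0.170 against 4.25 ± 0.0710 CPM (SD, n = 3 each), with the mean at 45.4% of control and a log2 difference of -1.14 ± 0.20 (SE). Every C1s-CM library had less than every control library. The SD between libraries on the log2 scale, 0.12 in C1s-CM and 0.02 in control CM, was below the 0.28 and 0.19 that counting error alone gives at these counts, so the closeness of the replicates says little about the error of this gene.

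SOD2 encodes the manganese superoxide dismutase of the mitochondrial matrix, which turns superoxide into hydrogen peroxide. It had 876, 944 and 864 counts in C1s-CM and 1152, 1240 and 1188 in control CM. The level was 64.6 ± 1.41 against 85.5 ± 3.57 CPM (SD, n = 3 each), or 75.6% of control, and the groups did not overlap. The log2 difference, -0.40 ± 0.05 (SE), was the smallest of the 5 in size and the one with the smallest error.

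JAK2 had 48, 64 and 82 counts in C1s-CM and 110, 162 and 159 in control CM, or 4.67 ± 1.26 against 10.2 ± 1.67 CPM (SD, n = 3 each). The mean was 45.7% of control and the log2 difference -1.13 ± 0.16 (SE). The libraries of a group differed more for JAK2 than for the other 4 genes, with log2-scale SDs of 0.39 with C1s and 0.25 without, where counting error alone gives 0.18 and 0.12. The highest C1s-CM library (6.02 CPM) still lay below the lowest control library (8.34 CPM). Without C1s-CM replicate 1, the lowest, the log2 difference of JAK2 was -0.97, and without C1s-CM replicate 3, the highest, it was -1.35.

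**Figure D2:**
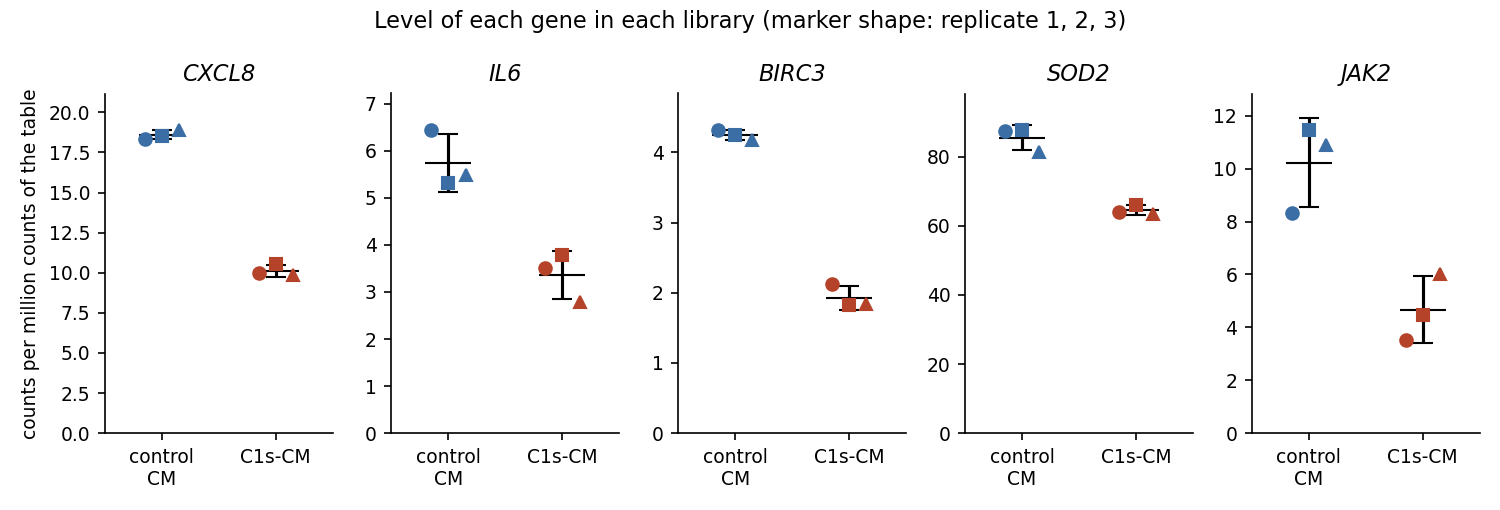
Level of each gene in CPM of the table (vertical axes, each from 0) in the 3 control CM and 3 C1s-CM libraries; points are libraries, the marker shape gives the replicate number, and black lines are the mean and SD. For each gene the 3 C1s-CM points lie below the 3 control points, with the narrowest relative gap for SOD2 (lowest control 81.4, highest C1s-CM 66.2 CPM).

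All 5 genes were lower in every C1s-CM library than in any control library, as were 48.3% of the 5116 genes tested, and 48.5% of those genes were called lower in edgeR's quasi-likelihood test; since the choice used this contrast, nothing is read from the members' count. The median log2 difference was -0.88 over the 5 genes and 0.08 over all genes tested. Ordered from the most negative difference among the 5116 genes, BIRC3 was at place 5, JAK2 at 6, CXCL8 at 50, IL6 at 172 and SOD2 at 1496. In the authors' deposited table the log2 fold changes were -1.10 for BIRC3, -1.10 for JAK2, -0.84 for CXCL8, -0.73 for IL6 and -0.37 for SOD2. With total counts as the only scaling the median of all genes moved from 0.08 to -0.05 and the 5 genes lay between -0.53 (SOD2) and -1.26 (BIRC3 and JAK2). Because the RNA is from bulk cultures, fewer cells with a transcript and less of it per cell cannot be told apart.

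Per kilobase of the representative transcript, the order of levels in control CM was CXCL8 (10.9 ± 0.167 CPM per kb), SOD2 (5.99 ± 0.250), IL6 (4.86 ± 0.517), JAK2 (1.94 ± 0.315) and BIRC3 (0.818 ± 0.0137; SD, n = 3). In C1s-CM the order was the same, with 5.93 ± 0.211, 4.53 ± 0.0990, 2.85 ± 0.435, 0.885 ± 0.239 and 0.371 ± 0.0327 CPM per kb. Neighbours in both orders lay further apart than 1 SD of either, though the SDs of CXCL8 and BIRC3 were below counting error. The place of SOD2 rests on its transcript length: the representative transcript has 14266 bases, the 10 coding transcripts range from 507 bases upwards, and with their median of 866 bases SOD2 would be first, at 98.7 CPM per kb in control CM.

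Within a library, CXCL8 and IL6 kept about the same ratio in both groups. CXCL8 had 1.96, 1.93 and 2.44 times the counts per kb of IL6 in C1s-CM and 1.97, 2.42 and 2.39 times in control CM, so the groups overlapped. The ratio of BIRC3 to its paralog BIRC2, which encodes cIAP1, was 0.0856, 0.0667 and 0.0623 in C1s-CM and 0.117, 0.0978 and 0.104 in control CM, without overlap. JAK2 stood at 0.0219, 0.0257 and 0.0353 of the level of the JAK family kinase TYK2 in C1s-CM and at 0.0585, 0.0836 and 0.0767 in control CM, again without overlap. BIRC2 was itself lower in C1s-CM (-0.56) and TYK2 higher (0.26, and 0.04 with offsets), with a GC content of 61.3% for TYK2 and 39.2% for JAK2. Because BIRC3 and JAK2 were chosen with their lower level in C1s-CM known, nothing is read from these separations.

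The 5 genes lie on 5 chromosomes. On GRCh38, by GENCODE release 29, CXCL8 (ENSG00000169429) spans chr4:73740506-73743716, IL6 (ENSG00000136244) chr7:22725884-22732002, BIRC3 (ENSG00000023445) chr11:102317450-102339403 and JAK2 (ENSG00000096968) chr9:4984390-5128183, all on the plus strand. SOD2 (ENSG00000112096) spans chr6:159669057-159745186 on the minus strand. All are protein-coding, with 4 exons for CXCL8, 5 for IL6, 9 for BIRC3, 5 for SOD2 and 25 for JAK2 in the representative transcript. How the authors' counting treated overlaps is not given in the sources used here. A second SOD2 entry (ENSG00000285441), without a row, shares 4204 bases of the exons of SOD2. The opposite-strand genes INSL6 and STEAP1B, also without rows, span 1614 exon bases of JAK2 and 305 of IL6, and without the use of strand their reads cannot be told apart from those of the genes they overlap.

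The messages of inflammatory genes often carry AU-rich elements in the 3′ untranslated region (UTR), built from copies of ATTTA, to which proteins that shorten or lengthen the life of the message bind. IL6 had 6 copies in a 3′ UTR of 427 bases, or 14.1 per kb, a density reached by 0.422% of the 4972 genes of the table with a 3′ UTR. CXCL8 had 9 copies in 1252 bases (7.19 per kb, reached by 2.82%) and BIRC3 5 in 632 bases (7.91 per kb, 2.05%). JAK2 had 6 in 1392 bases (4.31 per kb, 14.7%), and SOD2 36 in 13436 bases (2.68 per kb, 35.7%). The median gene had 1.68 copies per kb. The 3′ UTRs had a GC content of 28.6% for IL6, 28.7% for CXCL8, 30.5% for BIRC3, 30.03% for JAK2 and 40.9% for SOD2. The part of base composition in the ATTTA densities was not tested. The 30 bases with most copies are printed for the 2 secreted factors as in GENCODE release 29, with ATTTA in capitals, from base 644 of the 3′ UTR of CXCL8 (4 copies, some overlapping) and from base 124 of that of IL6 (2 copies).
CXCL8: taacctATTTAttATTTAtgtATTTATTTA
IL6: ttttaattatttttaATTTAttaatATTTA

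All 5 transcripts were poor in G and C, and in this table the direction of change went with GC content. The GC content of the representative transcript was 33.4% for CXCL8, 34.8% for BIRC3, 39.2% for JAK2, 41.7% for SOD2 and 42.6% for IL6, with a median of 49.4% over the genes tested. When genes were placed in 10 classes of rising GC content, CXCL8 and BIRC3 fell in class 1, where 99.2% of 512 genes were lower in C1s-CM with a median log2 difference of -0.59. The difference of CXCL8 was reached or passed by 25 genes of that class and that of BIRC3 by 3, each count taking in the gene itself. JAK2 had the most negative value of the 511 genes of class 2 (median -0.51, 99.6% lower). IL6 and SOD2 fell in class 4 (median -0.38, 96.5% lower), where 18 of 511 genes lay at or below IL6 and 232 at or below SOD2. In the 3 classes of highest GC content, from 58.5% upwards, 0 to 0.391% of genes were lower.

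With offsets per library for GC content and length of the transcript, 15.3% of 5112 genes were called higher and 9.02% lower. The log2 differences of the members were then -0.35 ± 0.10 for CXCL8, -0.59 ± 0.17 for IL6, -0.50 ± 0.20 for BIRC3, -0.63 ± 0.16 for JAK2 and 0.05 ± 0.05 for SOD2 (SE), with a median of -0.50 against 0.01 for all genes. CXCL8, IL6, BIRC3 and JAK2 were below 0, and SOD2 lay within 1 SE of 0. This fit uses the same counts by which the members were chosen, so nothing is read from their place below the other genes. The value of SOD2 rests on the transcript that stands for the gene. With the median GC content and length over the transcripts of each gene, an alternative chosen after seeing the data, SOD2 has 48.4% GC and 866 bases in place of 41.7% and 14266, and its difference was -0.28 ± 0.05. The same alternative gave -0.35 for CXCL8, -0.49 for IL6, -0.59 for BIRC3 and -0.72 for JAK2. The offsets were fitted on the genes of this table, and they would also remove a difference between the treatments that followed GC content or length.

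**Figure D3:**
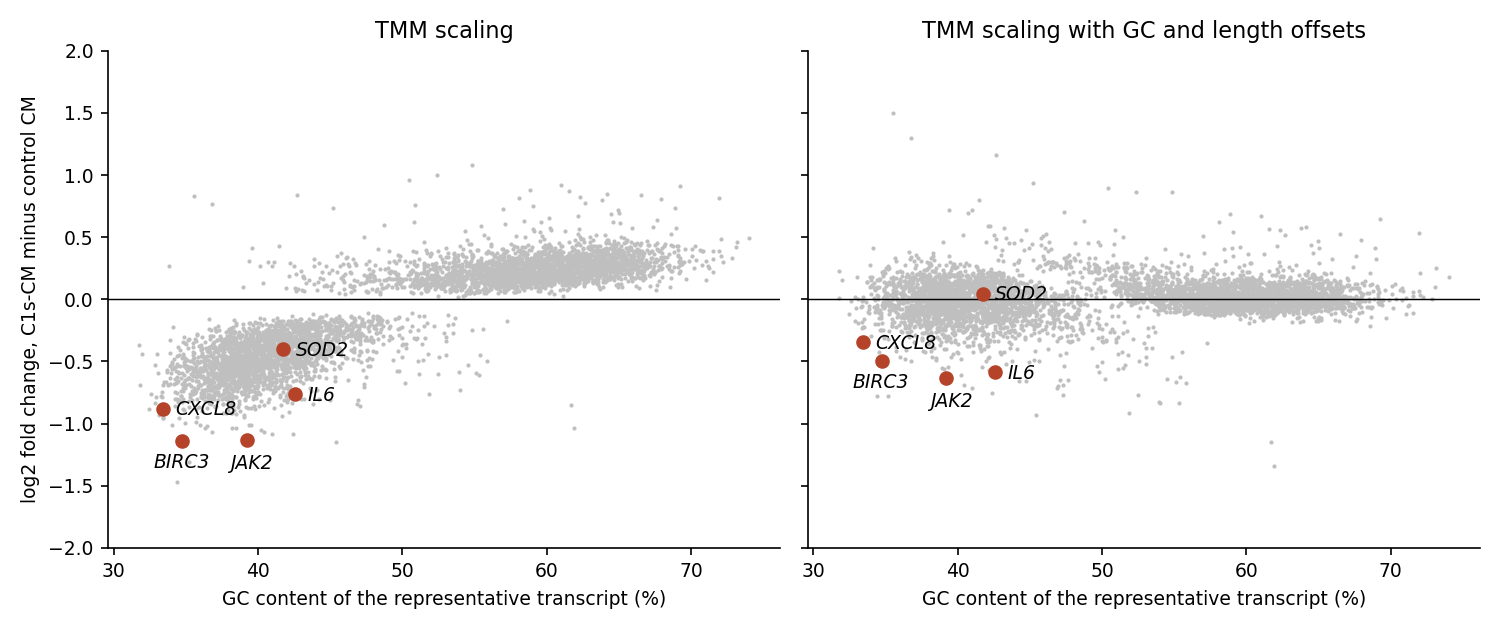
Log2 difference, C1s-CM minus control CM (vertical axis), against GC content of the representative transcript in % (horizontal axis) for 5106 genes (grey points; 6 genes beyond the vertical axis are not drawn), without offsets (left) and with GC and length offsets (right). On the left the 5 genes (red) lie with the GC-poor genes below 0; on the right SOD2 lies at 0.05 and the other 4 between -0.35 and -0.63.

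**Figure D4:**
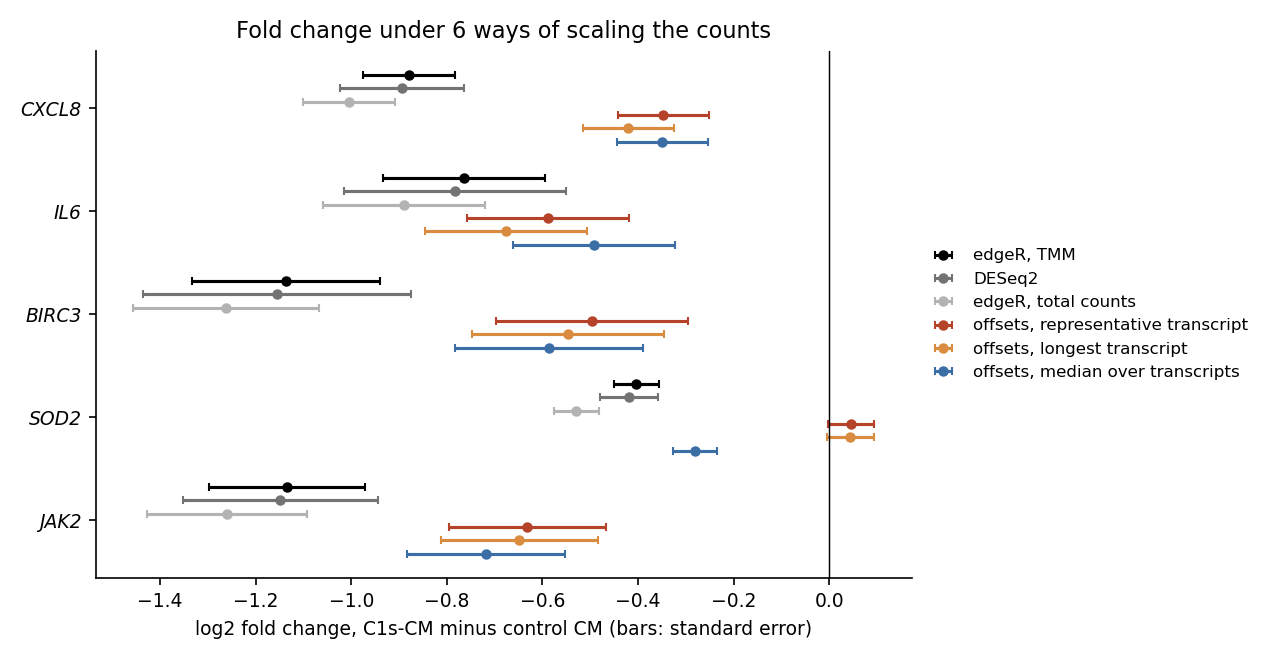
Log2 difference of each gene with its standard error (horizontal bars) under 6 ways of scaling the counts, marked by colour. For each gene edgeR with TMM and DESeq2 lie close together, total counts lie lower, and the fits with offsets lie nearer to 0. For SOD2 the median over transcripts gives -0.28 where the representative and longest transcripts give 0.05 and 0.04.

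The rest of the pathways was described from 11 lists of 198 genes in all. Of these, 70 had a tested row, and 35 were called higher and 35 lower in edgeR's quasi-likelihood test. Of all genes tested, 50.9% were called higher and 48.5% lower, close to the shares in the lists. The rows are of genes that the authors' test on the same libraries had already selected, so these calls are not independent evidence of change. With total counts as the only scaling 17 of the 70 were called higher (24.3%, against 26.1% of all genes) and 35 of the 70 lower (against 49.2% of all genes). With offsets 5 were called higher (7.14%, against 15.3% of all genes) and 6 lower (8.57%, against 9.02%). The median log2 difference of the 70 genes was -0.05, and -0.01 with offsets.

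Of 17 genes for NF-kB subunits, inhibitors and kinases 7 had a row, 5 higher and 2 lower. CHUK, the kinase IKK-alpha, had 370, 349 and 372 counts in C1s-CM against 503, 602 and 581 and fell by 0.61 on the log2 scale (adjusted p = 4.14e-08, edgeR), and TANK, an adaptor of the TBK1 kinase, fell by 0.50. MAP3K14, the kinase NIK of the noncanonical pathway, had 636, 767 and 697 counts against 513, 563 and 509 and rose by 0.42 (adjusted p = 4.16e-06, edgeR). With offsets only MAP3K14 was called (0.21). With the median over transcripts 1 was called higher and 1 lower. With total counts 2 were higher and 2 lower. The subunit genes NFKB1, REL and RELB and the inhibitor gene NFKBIA had no row.

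Of 33 upstream receptors and adaptors 15 had a row, 9 higher and 6 lower. IRAK1, a kinase below the interleukin 1 and Toll-like receptors, rose by 0.40 and SHARPIN, a subunit of the linear ubiquitin ligase, by 0.31. TAB2, an adaptor of the kinase TAK1, fell by 0.41 (-0.08 with offsets, and above 0, at 0.04 and 0.08, with the longest transcript and with the median over transcripts). With total counts 3 were higher and 6 lower. TNIP2, named after its values were seen, was among the 9 higher (0.12, and -0.0053 with total counts, not called). With offsets IRAK1 was higher (0.17) and TNIP2 lower (-0.13, adjusted p = 0.0466, edgeR), a call lost with the median over transcripts (-0.11, adjusted p = 0.0679). The median over transcripts gave 1 higher and 2 lower in this list. The deubiquitinase gene TNFAIP3 and the Toll-like receptor genes TLR2, TLR3 and TLR4 had no row.

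Of 27 further NF-kB target genes 4 had a row, and all 4 were called higher, 0 of them with offsets. GADD45B, a stress gene, had 1755, 1913 and 1953 counts in C1s-CM against 1510, 1540 and 1642 and rose by 0.27 (adjusted p = 2.2e-06, edgeR). NINJ1, which encodes a protein of membrane rupture, rose by 0.30, BCL2L1, which encodes the survival protein BCL-XL, by 0.15, and IER3, named after its values were seen, by 0.12. Their median GC content was 57.8%, against 39.2% for the 5 members. With offsets GADD45B was 0.05, NINJ1 0.01 and BCL2L1 -0.02, none of them called, and IER3 was called lower (-0.12). With total counts only GADD45B and NINJ1 were called, BCL2L1 was 0.03 and IER3 -0.0030. The chemokine and cytokine genes CXCL1, CXCL2, CXCL3, CCL2, IL1B and TNF had no row.

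Of 14 genes listed for the IL-6 family 6 had a row, 2 called higher and 4 lower. The list held cytokines and receptors of the family and also the protease genes ADAM10 and ADAM17, both among the 4 lower. ADAM17, named after its values were seen, fell by 0.27 (0.13 with offsets, not called). The 2 higher, CLCF1 (0.31) and CTF1 (0.33), named after their values were seen, encode secreted ligands, and neither was called with total counts or with offsets. IL6ST, the signalling subunit gp130 shared by the receptors of the IL-6 family, had 875, 907 and 824 counts in C1s-CM and 1363, 1612 and 1576 in control CM. The groups of IL6ST did not overlap, and it fell by 0.79 (SE 0.05, adjusted p = 1.24e-12, edgeR), and with offsets it fell by 0.15, still past the threshold. LIFR, which pairs with gp130 in the receptor of leukemia inhibitory factor, fell by 0.77, and ADAM10, which encodes a protease that sheds receptors, fell by 0.48. With offsets LIFR (-0.12) was not called and ADAM10 turned to 0.11, not called. With the median over transcripts 1 of the 6 was called higher, and IL6ST, LIFR and ADAM10 were called lower. IL6R had no row, and neither did the 6 listed receptors of CXCL8 and related chemokines. With total counts 0 of the 6 were called higher and 4 lower.

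Of 29 JAK-STAT kinases, factors and inhibitors 9 had a row, 3 higher and 6 lower (2 and 6 with total counts). The cytokine signalling inhibitor SOCS4 fell by 0.76 and the phosphatase PTPN11 fell by 0.48. With offsets 0 of the 9 were called in edgeR, 0 higher and 0 lower, and SOCS4 was -0.10 and PTPN11 -0.06. With the median over transcripts 0 were called higher and 1 lower, PTPN11. The kinase genes JAK1 and JAK3, STAT3, and SOCS3, a target of STAT3, had no row. Of 11 further receptors that use JAK2 only the leptin receptor gene LEPR had a row. It had 127, 102 and 143 counts against 180, 239 and 232 and fell by 0.79 (-0.16 with offsets, not called).

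Of 15 inhibitors of apoptosis and caspases 5 had a row, 1 higher and 4 lower (0 and 4 with total counts). XIAP, which binds and blocks caspases, had 327, 342 and 352 counts in C1s-CM and 507, 597 and 628 in control CM and fell by 0.75 (adjusted p = 1.9e-09, edgeR), and with offsets it fell by 0.18 (adjusted p = 0.0481, edgeR), a call lost with the median over transcripts (-0.17, adjusted p = 0.0645). BIRC2, the paralog of BIRC3, fell by 0.56 and the very large family member BIRC6 fell by 0.32. With offsets BIRC2 was -0.06 and BIRC6 0.06, neither called.

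Around SOD2, 10 of 17 other antioxidant enzyme genes had a row, 7 higher and 3 lower (6 and 3 with total counts). GPX4, which reduces lipid peroxides, rose by 0.36, PRDX5, a peroxiredoxin, by 0.33 and GPX1, a glutathione peroxidase, by 0.41. Only GPX1 (0.10) and PRDX6 (0.31, named after its values were seen) were called with offsets. With the median over transcripts 6 were called higher, GPX4 and PRDX5 among them, and 0 lower. SOD1 and CAT had no row.

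Of 14 genes listed for AU-rich element binding 8 had a row, 2 higher and 6 lower (1 and 6 with total counts, and 1 higher without C1s-CM replicate 3). RC3H2, one of the Roquin proteins that bind stem-loops in messages, fell by 0.53 and KHSRP, a decay factor, rose by 0.22. TTC37, which fell by 0.61, is a subunit of the Ski complex of RNA decay and does not itself define AU-rich binding. With offsets HNRNPD, named after its values were seen, was the only one called (0.46), RC3H2 turned to 0.07 and KHSRP was 0.02. With the median over transcripts 2 were called higher and 0 lower. Of 15 AP-1 and C/EBP factors 5 had a row, 2 higher and 3 lower (1 and 3 with total counts), and ATF2 fell by 0.55, CEBPG fell by 0.50 and CEBPZ fell by 0.66. JUND, named after its values were seen, was among the 2 higher (0.16, and 0.04 with total counts, not called). With offsets CEBPG (-0.16) and JUND (-0.15) were called lower, and CEBPG lost its call with the median over transcripts (-0.04, adjusted p = 0.61, edgeR). CEBPB, JUN and FOS had no row.

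**Figure D5:**
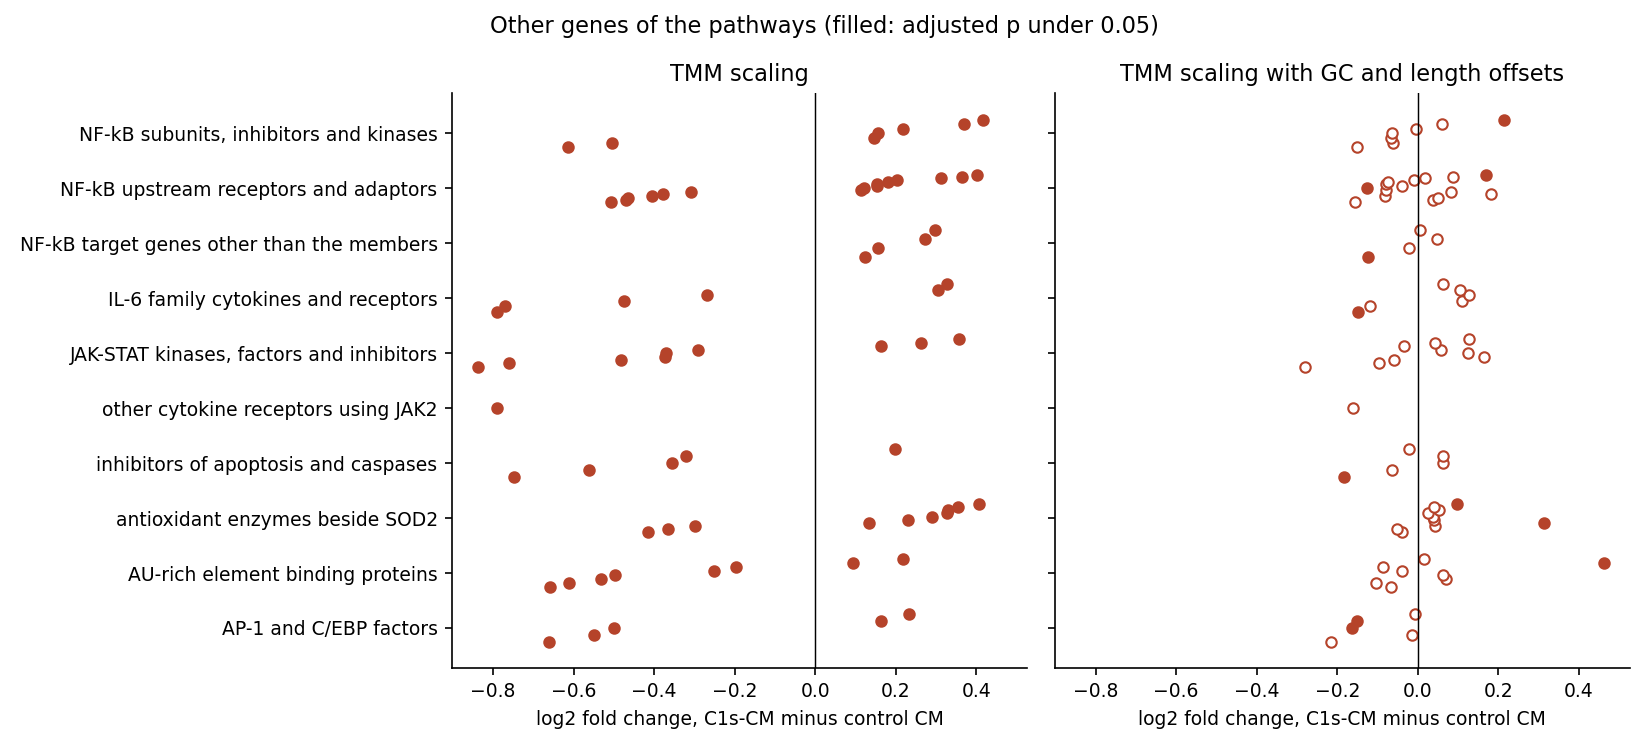
Log2 difference, C1s-CM minus control CM (horizontal axes), of the listed pathway genes with a row, 1 point per gene and 1 line per list, without offsets (left) and with GC and length offsets (right); filled points have an adjusted p under 0.05 in edgeR. Without offsets 35 genes are called higher and 35 lower, and with offsets 5 and 6.

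The genes whose course over the 6 libraries was most like that of each member were found by the root mean square (RMS) difference of log2 CPM, each gene centred on its mean. For CXCL8 they were LRRC58 (RMS difference 0.02), KIF18A (0.04) and DNAJC2 (0.05), and for IL6 DENND2C (0.05), AP1AR (0.07) and ZNF614 (0.09). For BIRC3 they were SKIL (0.09), ZDHHC21 (0.09) and AC097448.1 (0.10), and for SOD2 PAPOLG (0.02), NUDT21 (0.02) and PDGFC (0.03). JAK2 had no neighbour as close: FTX (0.11), AHI1 (0.17) and NIPAL1 (0.18) came nearest. The gene closest to CXCL8, LRRC58, had 383, 425 and 366 counts in C1s-CM and 680, 734 and 788 in control CM. Likeness over 6 libraries in 2 groups mainly ranks genes with a like difference between the groups.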

How the data were processed

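RNA was sequenced from 6 libraries of HMC3 cells, 3 per group. Poly(A) RNA was selected, fragmented and primed at random, per the labels' protocols. The submitters' processing notes name FastQC 0.11.9, Trim Galore 0.6.7, HISAT2 2.2.1, DESeq2 1.40.2 and the build GRCh38; which counter and annotation were used, and whether strand was, is not given in the sources used here. The deposited table holds raw counts per gene, not normalized, and, per the file headers, the authors' log2 fold change, p-value and adjusted p-value.

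Counts were scaled by TMM and fitted in R 4.3.3 with edgeR 4.0.16, after filterByExpr had left out 1 gene. The two-sided quasi-likelihood test of the remaining 5116 had only the group in its design, and p-values were adjusted over all 5116 (Benjamini-Hochberg, threshold 0.05). The SE is the log2 difference divided by the square root of F. A p-value measures only how these libraries vary, and that spread may be technical. Offsets came from a robust loess fit (span 0.3) of log2 CPM on 2 features, GC content and length (log2), of 1 representative GENCODE 29 transcript per gene, chosen by principal isoform, then support level. Alternatives used DESeq2 1.42.0, total counts, other filters, a replicate block, the offsets and each library left out. The fit was tested on simulated counts.

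The members, lists, tests and alternatives were chosen with earlier results of these data known. Named genes are the members, up to 3 called genes per list with the smallest p, and 3 genes most like each member with a mean of at least 1 CPM (log2 CPM with a prior count of 2); genes that this rule also named, 2 in all, are not reported here. Promoters are from the RefSeq table of GRCh38.p14, which held all 5 members.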

Additional observations from a re-analysis of the deposited data

How the results depend on the processing

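Among the results reported, all 5 members kept their direction and stayed within the spread between libraries with DESeq2, without the filter, with at least 50 counts in 3 samples and with the replicate block. The replicate numbers do not pair the libraries: same-numbered libraries had correlations of -0.13, -0.09 and -0.003 between their deviations from the group means. With the replicate block 2573 genes were called higher and 2481 lower, and without offsets the block changed no call of a named gene (CXCL8 -0.88, IL6 -0.77, BIRC3 -1.14, SOD2 -0.40, JAK2 -1.13). Leaving out each library in turn gave -0.91 to -0.86 for CXCL8, -0.86 to -0.65 for IL6, -1.21 to -1.10 for BIRC3, -0.44 to -0.38 for SOD2 and -1.35 to -0.97 for JAK2, with 2515 to 2570 genes called higher, 2481 lower, and 33 to 35 of the pathway genes higher.

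Total counts gave 1336 genes called higher, 17 of them pathway genes, and -1.005 for CXCL8, -1.26 for BIRC3, -0.53 for SOD2 and -0.0090 for PDGFRB, which turned. Genes called higher and lower were 784 and 461 with offsets, 755 and 420 with offsets and the replicate block, 840 and 515 with offsets from the longest transcript and 874 and 648 with the median over transcripts. Pathway genes called higher and lower were 5 and 6, 5 and 3, 8 and 9, and 11 and 9 in that order. With offsets and the replicate block XIAP (-0.18, adjusted p = 0.0533, edgeR), CEBPG (-0.16, 0.0556) and TNIP2 (-0.13, 0.0704) were not called, nor were they with the median over transcripts. In that order CXCL8 had -0.35, -0.35, -0.42 and -0.35, BIRC3 -0.50, -0.50, -0.55 and -0.59, JAK2 -0.63, -0.63, -0.65 and -0.72, and SOD2 0.046, 0.045, 0.045 and -0.28. IL6 had -0.59, -0.59, -0.68 and -0.49.

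Other named genes turned under these 4 settings, in the same order: BCL2L1 (-0.021, -0.021, -0.057, -0.053), BIRC6 (0.062, 0.063, 0.062, 0.10), PDGFRB (-0.051, -0.052, -0.084, -0.11) and PAPOLG (0.10, 0.10, 0.17, 0.20) in all 4. ADAM10 (0.11, 0.11, 0.11), RC3H2 (0.070, 0.070, 0.064) and NUDT21 (0.17, 0.16, 0.15) turned in the first 3. TAB2 (0.043, 0.078) and KHSRP (-0.0016, -0.040) turned in the last 2. Outside the naming rule, IER3, JUND, TNIP2 and COL1A1 were above 0 with TMM scaling alone and below 0 in all 4. The cause of these turns was not tested. BIRC3, with 25 to 61 counts per library, and IL6, with 38 to 85, are limited most by depth.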
